A study of Bos taurus and Bos indicus with 6 samples.

Results

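The receptors described are the killer cell lectin-like receptors KLRD1, KLRK1, KLRB1, KLRC1, KLRF1, KLRJ1 and KLRA1 and the natural cytotoxicity receptors NCR1 and NCR3. These 9 genes were chosen by symbol, with earlier results of these data known. In the platform's probe annotation 8 probe sets carried 1 of these symbols, which covered 7 of the 9 genes, out of 9155 genes with a probe set of a single symbol. KLRB1 had 2 probe sets and the other measured genes 1 each, while KLRC1 and KLRF1 were carried by none and are not analysed here. The samples were peripheral white blood cells of 3 Brahman (Bos indicus) and 3 Holstein (Bos taurus) females, all 6 months old, all under heavy challenge with the cattle tick Rhipicephalus microplus. Blood was drawn from the jugular vein, its red cells were lysed, and RNA of the whole white cell pellet of each animal was hybridised to its own array, so the 3 replicates of a breed are separate animals. Animals without ticks were not analysed here, so each value compares breeds and not infestation with its absence.

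Natural killer (NK) cells decide whether to kill a target by weighing signals from activating and inhibitory surface receptors. The lectin-like receptors are type II membrane proteins with a C-type lectin-like fold, and their genes lie together in the NK gene complex. The natural cytotoxicity receptors are immunoglobulin-like activating receptors encoded elsewhere. Several of the lectin-like receptors are also carried by subsets of T cells, so in whole white cells a transcript of this family is not a measure of NK cells alone. Fewer cells of a type and less RNA per cell cannot be told apart in such bulk samples. Whether the probes read Bos indicus and Bos taurus RNA equally well was not tested.

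The arrays held white cell RNA by their markers. The mean of 7 pan-leukocyte genes, PTPRC among them, ran from 12.42 to 12.49 on the Brahman arrays and from 12.41 to 12.57 on the Holstein arrays, on the log2 scale of RMA, the method that turns the probes of a probe set into 1 level per array. The median log2 level over all probe sets lay between 6.54 and 6.61 on every array. The spike-in hybridisation controls, added RNA that does not come from the animals, averaged 9.72 ± 0.08 on Brahman and 10.14 ± 0.22 on Holstein arrays (log2, SD, n = 3 each) and did not overlap. This technical level therefore separates the breeds as well, and its part in the differences below was examined only as a covariate. With this covariate the standard error (SE) of every receptor difference was larger, so a call can be lost without a smaller difference. The arrays hold no separate measure of background here, so a level under the lower quartile (5.08) of the tested probe sets is called dim, since it may be no more than background.

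None of the 8 receptor probe sets passed the test between breeds, which was limma's moderated test with p-values adjusted by Benjamini-Hochberg over all 24016 probe sets and a threshold of 0.05. Of all probe sets 0.137% passed it. At an unadjusted p under 0.05 there were 2 of the 8, KLRD1 with higher and KLRA1 with lower values in Brahman, where 13.6% of all probe sets reached that level, 7.12% with higher and 6.47% with lower values. The count was 1 without Brahman 1 or without Holstein 3, where KLRD1 was left. It was also 1 after adjusting for the spike-in level, where KLRK1 was the one and neither KLRD1 nor KLRA1 reached it. In 7 of the 8 the Brahman mean was the higher one, which was the case for 55.5% of all probe sets. The median difference over the 8, Brahman minus Holstein, was 0.16, against 0.02 over all probe sets. It was 0.28 without Brahman 3, 0.30 with dim probe sets left out and 0.41 after adjusting for the spike-in level.

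**Figure D1:**
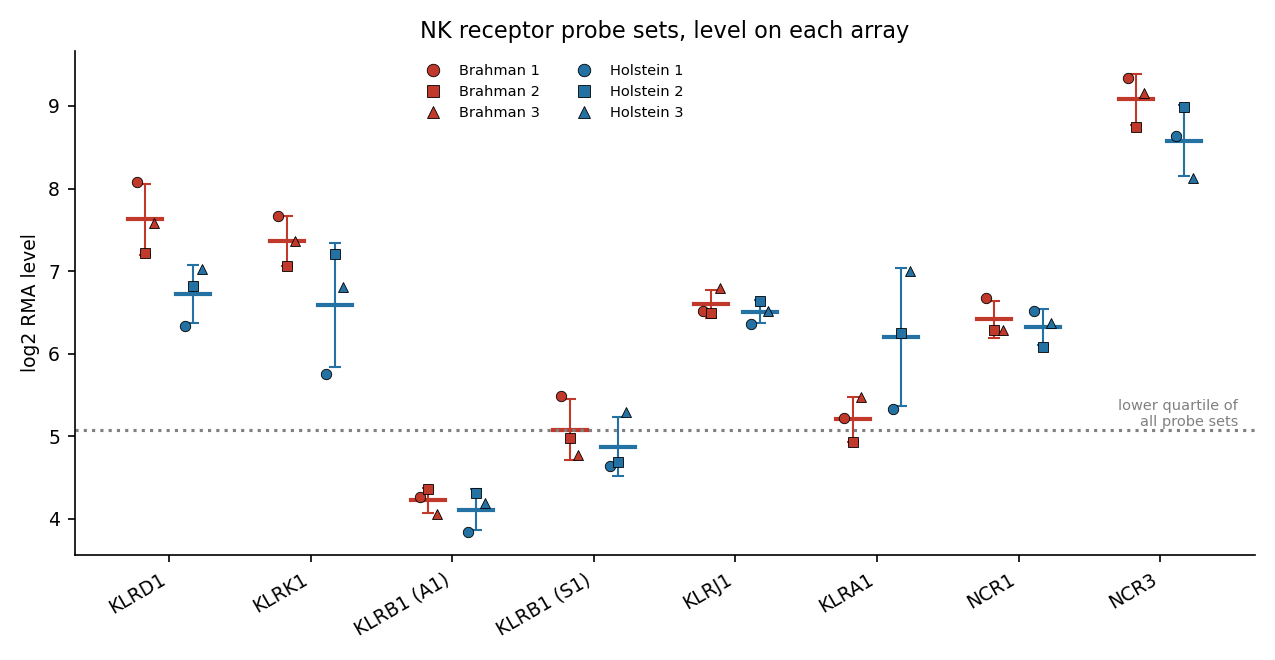
Log2 RMA level (vertical axis) of the 8 receptor probe sets on each array, with Brahman in red on the left and Holstein in blue on the right of each pair. Symbols are single animals, thick bars the mean and thin bars the SD of 3 animals, and the dotted line is the lower quartile of all probe sets (5.08). KLRD1 is the probe set whose breeds do not overlap, and both KLRB1 probe sets lie near or under the dotted line.

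KLRD1 encodes CD94, the common partner chain that joins a chain of the NKG2 family to form a receptor which, in humans, reads the non-classical MHC class I molecule HLA-E. Its level was 8.08, 7.22 and 7.58 on Brahman arrays 1, 2 and 3, against 6.34, 6.81 and 7.02 on Holstein arrays 1, 2 and 3 (log2). Every Brahman animal stood above every Holstein animal, with 0.20 between the lowest Brahman and the highest Holstein value. The breeds did not overlap in 20.0% of all probe sets, with Brahman higher in 11.7%. The means were 7.63 ± 0.43 in Brahman and 6.72 ± 0.35 in Holstein (SD, n = 3 each), a difference of 0.90 (SE 0.25, 95% interval 0.32 to 1.49, adjusted p = 0.216), or 1.87-fold. The difference did not pass the test over all probe sets. After adjusting for the spike-in level it was 1.11 (SE 0.49, 95% interval -0.08 to 2.29).

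KLRK1 encodes NKG2D, an activating receptor for stress-induced ligands of the MIC and ULBP families. Its level was 7.67, 7.06 and 7.37 in Brahman animals 1, 2 and 3, against 5.75, 7.20 and 6.80 in Holstein animals 1, 2 and 3. Holstein 1 stood far below all other animals, and Holstein 2 lay inside the Brahman range. The difference was 0.78 (SE 0.35, 95% interval -0.04 to 1.61, adjusted p = 0.388). It was 0.36 without Holstein 1, so a large part of it rested on that animal, and 1.87 after adjusting for the spike-in level.

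KLRB1 encodes NKR-P1, which in humans is CD161 and binds the lectin-like ligand CLEC2D. Its probe set ending in S1 read 5.49, 4.98 and 4.77 in Brahman, against 4.65, 4.69 and 5.29 in Holstein. Its probe set ending in A1 read 4.26, 4.36 and 4.06 in Brahman, against 3.84, 4.31 and 4.19 in Holstein. Both averages over the 6 arrays were dim and the breeds overlapped in both. The differences of 0.20 (95% interval -0.34 to 0.75) and 0.11 (95% interval -0.23 to 0.45) did not pass, and a difference in this gene might not be seen at such levels.

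KLRA1 is the bovine member of the Ly49 family, whose mouse relatives read MHC class I molecules. Its level was 5.22, 4.93 and 5.47 in Brahman animals 1, 2 and 3, against 5.33, 6.26 and 7.01 in Holstein animals 1, 2 and 3. The Brahman animals were close together and near the dim range, while the Holstein animals spread over 1.67 log2 units and Holstein 1 fell among the Brahman values. The means were 5.21 ± 0.27 in Brahman and 6.20 ± 0.84 in Holstein (SD, n = 3 each), a difference of -0.99 (SE 0.38, 95% interval -1.89 to -0.10, adjusted p = 0.327). It was -0.59 without Holstein 3 and -0.33 after adjusting for the spike-in level.

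KLRJ1 is a further lectin-like gene of the complex, and its level hardly varied. It read 6.52, 6.49 and 6.79 in Brahman, against 6.36, 6.64 and 6.52 in Holstein. The difference was 0.09 (95% interval -0.19 to 0.38, adjusted p = 0.786). After adjusting for the spike-in level it was 0.40 (95% interval -0.03 to 0.84), so the narrower interval holds only without that covariate.

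Of the natural cytotoxicity receptors, NCR1 encodes NKp46, a defining receptor of NK cells across mammals that is also used to identify them in cattle. It read 6.67, 6.29 and 6.29 in Brahman animals 1, 2 and 3, against 6.51, 6.08 and 6.37 in Holstein animals 1, 2 and 3. The breeds overlapped throughout, with a difference of 0.09 (SE 0.15, 95% interval -0.26 to 0.45, adjusted p = 0.833), and -0.38 after adjusting for the spike-in level. The interval given, without that covariate, does not reach the KLRD1 estimate of 0.90 but overlaps the KLRD1 interval of 0.32 to 1.49. NCR1 was not tested against KLRD1.

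NCR3 encodes an activating receptor that in humans binds BAG6 and the tumour ligand NCR3LG1. It read 9.34, 8.74 and 9.16 in Brahman animals 1, 2 and 3, against 8.63, 8.98 and 8.12 in Holstein animals 1, 2 and 3. Brahman 1 and 3 were above all Holstein animals and Brahman 2 was below Holstein 2. The difference was 0.50 (SE 0.24, 95% interval -0.06 to 1.06, adjusted p = 0.412), with 0.27 when Holstein 3 was left out and 0.87 after adjusting for the spike-in level.

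**Figure D2:**
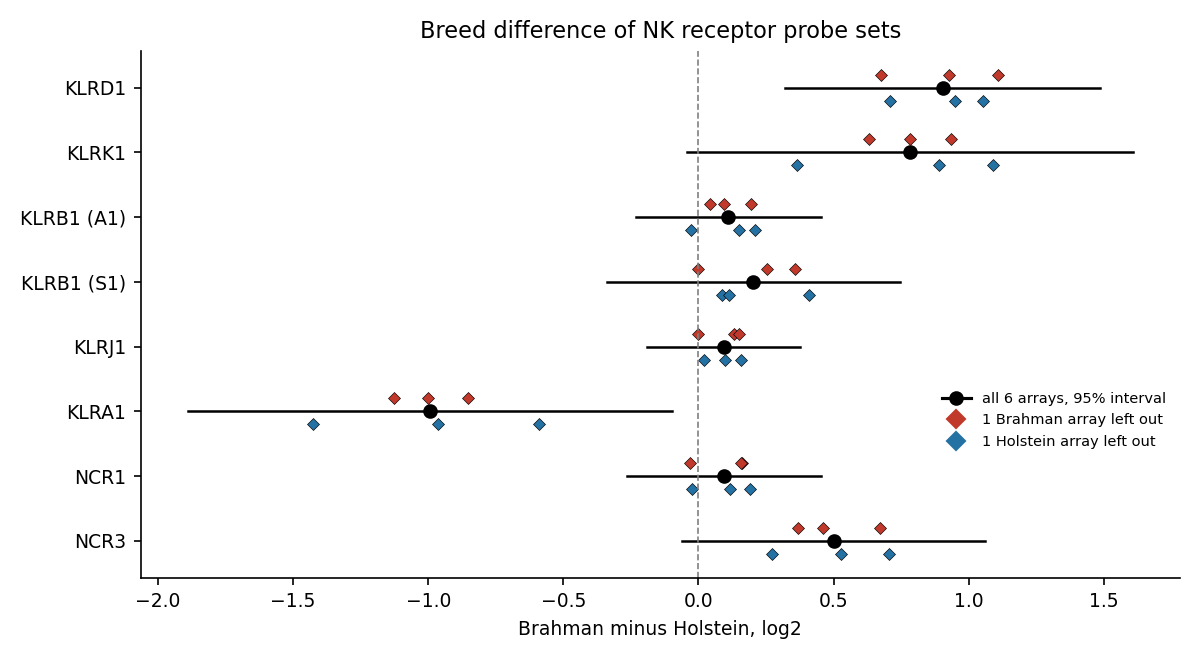
Brahman minus Holstein difference in log2 level (horizontal axis) for each receptor probe set. Black points and lines are limma's estimate and 95% interval over 6 arrays, and red and blue diamonds are the estimates with 1 Brahman or 1 Holstein array left out. KLRD1 stays between 0.68 and 1.11 with each array left out, and KLRA1 between -1.43 and -0.59.

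The KLRD1 and KLRA1 differences lay in opposite directions. The KLRD1 level minus the KLRA1 level was 2.87, 2.29 and 2.11 in Brahman, against 1.00, 0.56 and 0.02 in Holstein, without overlap. KLRD1 was taken for this and for both within-array comparisons that follow after its values were seen. The levels of KLRD1 itself do not overlap between breeds, so the lack of overlap in these comparisons partly restates that. KLRD1 had the highest and KLRA1 the lowest difference of the receptor probe sets. The choice of this pair therefore favours a large difference, and the permutation p below does not allow for that choice. The within-array difference was larger in Brahman by 1.90, with a two-sided exact permutation p of 0.1, which is the smallest that 3 against 3 animals allow, so this design cannot reach 0.05.

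KLRD1 was also set against markers of the cells that carry it. NK markers outside the family (6 of 8 listed genes were measured) had higher values in Brahman in 3 and lower values in 3, with a median difference of -0.01, and their mean level ran from 8.14 to 8.57 in Brahman and from 8.23 to 8.83 in Holstein. Of the 6, 0 higher and 2 lower had an unadjusted p under 0.05, the Fc receptor gene FCGR3A (-0.78) and the perforin gene PRF1 (-0.60). The 2 became 1 without Brahman 1 and 0 without Brahman 2, Brahman 3, Holstein 1 or Holstein 2. Of all probe sets 7.12% had higher and 6.47% lower values at an unadjusted p under 0.05. The granule gene GNLY differed by 0.09 and NKG7 by 0.00, and NCAM1 was dim in both breeds. T cell markers (12 of 17 measured) had higher values in Brahman in 10, as had 55.5% of all probe sets. Of the 10, 0 passed the test over all probe sets. At an unadjusted p under 0.05 there were 7, or 4 without Brahman 1, Holstein 2 or Holstein 3. The median difference of the list was 0.25. CD247 and LCK are on this list and also among the adaptor and signalling genes below. The mean level of the T cell markers ran from 9.37 to 9.54 in Brahman, above the 9.17 to 9.25 of Holstein. The KLRD1 level minus the NK marker mean was higher in Brahman by 1.10, and minus the T cell marker mean by 0.64, both without overlap and both with an exact permutation p of 0.1 (0.1 after Benjamini-Hochberg over these 3 within-array comparisons). KLRD1 itself differed by 0.90, and the NK marker mean includes the lower FCGR3A and PRF1 values. Whether FCGR3A was read from NK cells alone was not tested. The part that either cell type has in the KLRD1 difference was not tested further.

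Markers of the other blood cells that the pellet could hold are given for comparison. Monocyte and macrophage markers had higher values in Brahman in 2 of 7, with a mean level from 8.45 to 8.73 in Brahman and from 8.62 to 9.03 in Holstein, and CD14 differed by -0.94 and VCAN by 0.92 (adjusted p = 0.141 and 0.0719), both without overlap. B cell markers had higher values in 3 of 5, with BLK at 0.97 and CR2 at 0.35, both without overlap, and MS4A1 at -0.14. Neutrophil markers had higher values in 3 of 6, with ALPL at 1.42. Of these lists 0 genes passed the test over all probe sets, with 2 higher and 0 lower B cell genes, 1 higher and 2 lower monocyte genes and 1 higher neutrophil gene at an unadjusted p under 0.05. Of all probe sets 7.12% were higher and 6.47% lower at that level, and 55.5% had the higher mean in Brahman.

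Within Brahman the KLRD1 level ranged over 0.86 log2 units, and several receptors shared the order of the Brahman animals. Brahman 1 was the highest and Brahman 2 the lowest of the Brahman arrays for 4 of the 8 receptor probe sets, those of KLRD1, KLRK1, NCR1 and NCR3, and for 18.2% of all probe sets. The same order held for 4 of 10 measured cytotoxic effector genes and 3 of 6 NK markers, lists that have GNLY, NKG7 and PRF1 in common, and also for 5 of 12 T cell markers and 3 of 7 pan-leukocyte markers. GNLY lay 0.45 above the breed mean in Brahman 1 and 0.64 below it in Brahman 2. PRF1, the pore-forming protein perforin, lay 0.47 above and 0.46 below. This order was noticed in the data, and no test was made of it.

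Holstein 1 was the lowest Holstein animal for all 6 lectin-like probe sets and for neither NCR1 nor NCR3, and for 31.4% of all probe sets. Its levels for KLRD1, KLRK1, KLRJ1 and KLRA1 lay at -0.39, -0.84, -0.14 and -0.86 from the breed mean, and those of KLRB1 at -0.28 (A1) and -0.23 (S1). The same animal was the highest Holstein one for NCR1 (0.19), GNLY (0.38), PRF1 (0.21) and NKG7 (0.45), but for 4 of the 10 cytotoxic effector genes in all, and the lowest for 2 of them. GZMB and CTSW had their middle Holstein value in it, and SRGN, the granule proteoglycan, its lowest (13.04). Holstein 1 was also the highest Holstein animal for 5 of 6 NK markers, 5 of 7 pan-leukocyte markers and 6 of 12 T cell markers. The same held for 6 of 7 monocyte and macrophage markers, 5 of 6 neutrophil markers and 2 of 5 B cell markers. The share of all probe sets with Holstein 1 highest was not counted. This order too was noticed in the data and was not tested.

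**Figure D3:**
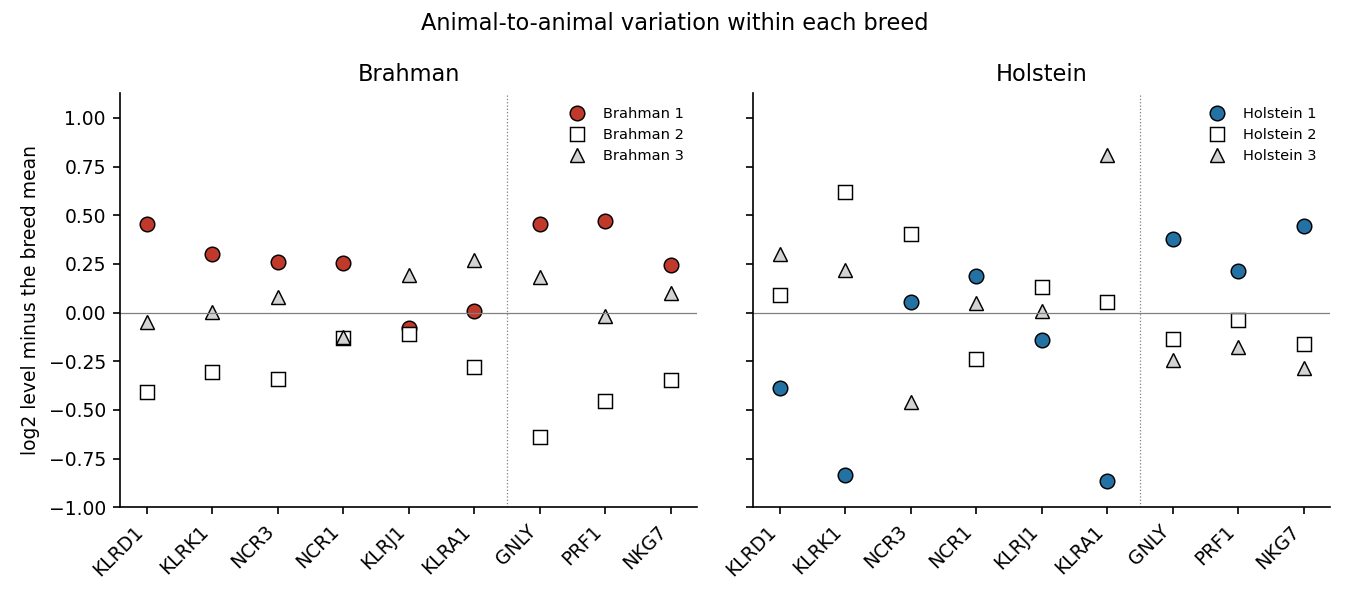
Log2 level minus the mean of the animal's own breed (vertical axis) for 6 receptors, left of the dotted line, and 3 granule genes of cytotoxic cells, right of it. Each symbol is 1 animal. Brahman 1 is above the other Brahman animals for KLRD1, KLRK1, NCR3, NCR1 and the 3 granule genes shown, whereas Holstein 1 is lowest for KLRD1, KLRK1, KLRJ1 and KLRA1 and highest for the 3 granule genes shown.

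Signalling partners, ligands, other lectin-like and NK receptors, NK cell regulators and effectors were read from 6 lists, of which 54 genes had a probe set. The brightest probe set of each gene was used. The lists were written with earlier results of these data known, so the shares below may include genes already seen to differ. Of the 54 genes, 3 were called: the granule protease GZMB and the receptor SLAMF6 higher and the oxidised lipoprotein receptor OLR1 lower in Brahman. At an unadjusted p under 0.05 there were 9 higher (16.7%) and 6 lower (11.1%), against 7.12% and 6.47% of all probe sets, and the median difference over the 54 was -0.004. These counts were 5 and 4 without Brahman 1, 10 and 3 without Holstein 1, 6 and 9 without Holstein 3, and 4 and 4 with the spike-in covariate. The number called was 0 when Brahman 1, 2 or 3 or Holstein 1 was left out, 1 without Holstein 2, 4 without Holstein 3, 0 with the spike-in covariate, 1 with the replicate number as a block and 2 with array medians subtracted.

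Activating receptors of this family have short tails and signal through small adaptor proteins. TYROBP, the adaptor DAP12, read 11.37, 11.71 and 11.64 in Brahman, against 12.16, 12.30 and 11.49 in Holstein, a difference of -0.41 (adjusted p = 0.453), or -0.66 without Holstein 3 and -0.10 with the spike-in covariate. FCER1G and CD247, the adaptor chains of NCR1 and NCR3 in humans, differed by -0.17 and 0.26 (adjusted p = 0.764 and 0.357). The values of TYROBP and CD247 thus lay in opposite directions, and HCST, the adaptor of KLRK1, is not analysed here.

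Of the 11 measured adaptor and signalling genes, these 3 adaptors included, 6 had higher values in Brahman, 4 of them with an unadjusted p under 0.05 (2 without Brahman 1 or without Holstein 2). Their median was 0.24, and 0.07 without Holstein 2. The scaffold LCP2 read 11.33, 11.39 and 11.25 in Brahman, against 10.86, 10.73 and 10.73 in Holstein. Its difference was 0.55 (SE 0.09, adjusted p = 0.0956), with no overlap. The kinase ZAP70, which docks on CD247, differed by 0.77 and the kinase FYN by 0.38 (adjusted p = 0.227 and 0.276), both without overlap. With the spike-in covariate they differed by 0.23 and 0.018. CD247 was also higher without overlap, while VAV1 (-0.22) and LYN (-0.17) of the same list were lower without overlap. Of all probe sets 20.0% had no overlap, 11.7% with Brahman higher. At an unadjusted p under 0.05, 7.12% of all probe sets were higher.

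Of the inhibitory phosphatases, which lectin-like receptors with inhibitory tails recruit, PTPN6 differed by -0.25 (adjusted p = 0.328) with no overlap and INPP5D by 0.03. Of the ligands 5 of 17 listed genes were measured, 1 with a higher value, and 0 reached an unadjusted p under 0.05. MIC1, a bovine MIC gene and so a candidate ligand of KLRK1, differed by 0.26 and 0.11 in its probe sets. BAG6 differed by -0.23 in its brightest probe set, and its 3 other probe sets had positive differences between 0.04 and 0.41. The BOLA probe set for MHC class I read 12.66, 13.57 and 14.43 in Brahman, against 14.25, 14.40 and 13.50 in Holstein, so the Brahman animals spread widely (difference -0.49, adjusted p = 0.665). The difference was -0.048 without Brahman 1, -0.93 without Brahman 3 and 0.28 with the spike-in covariate.

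Other lectin-like and NK receptors went both ways, with higher values in Brahman in 7 of 15 and a median of -0.01. SLAMF6, a receptor of NK and T cells, read 8.16, 8.46 and 8.79 in Brahman, against 5.87, 6.59 and 6.71 in Holstein (difference 2.08, SE 0.25, adjusted p = 0.0416). OLR1, a lectin-like gene of myeloid and endothelial cells, read 6.92, 7.29 and 7.17 in Brahman, against 8.60, 8.54 and 8.25 in Holstein (difference -1.34, SE 0.14, adjusted p = 0.0258). Both calls were lost with the spike-in covariate (adjusted p = 0.358 and 0.376), where the differences were 2.78 for SLAMF6 and -1.27 for OLR1. The OLR1 call was also lost with the replicate block (0.107) and the SLAMF6 call with array medians subtracted (0.0538), and both were lost without any 1 array other than Holstein 3. SLAMF7, another receptor of the SLAMF6 family, differed by -0.54 (adjusted p = 0.198) with no overlap.

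Regulators and cytokine receptors of NK cells had 5 of 11 higher values in Brahman and a median of -0.01. IL15, the cytokine on which NK cells depend, read 7.50, 7.57 and 8.08 in Brahman, against 8.58, 8.94 and 8.27 in Holstein (difference -0.88, SE 0.21, adjusted p = 0.179). Every Brahman value was under every Holstein one, and the difference was -0.33 with the spike-in covariate. The common cytokine receptor chain IL2RG differed by 0.22 (adjusted p = 0.361), and IL18R1 was dim in both of its probe sets, with differences of 0.17 and -0.05.

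Among the effectors that the receptors release, 7 of 10 had higher values in Brahman, with a median of 0.06. GZMB, also known as granzyme B, read 9.92, 9.76 and 9.42 in Brahman, against 7.10, 7.77 and 6.71 in Holstein, 2.51 higher (SE 0.26, adjusted p = 0.0264). Its adjusted p was 0.358 with the spike-in covariate, where the difference was 3.03, and 0.0536 with the replicate block. The GZMB call was also lost without any 1 array other than Holstein 2 or Holstein 3. PRF1 differed by -0.60 and the chemokine CCL5 by 0.40 (adjusted p = 0.326 and 0.658). They differed by -0.37 without Brahman 2 and by 0.018 without Brahman 1.

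**Figure D4:**
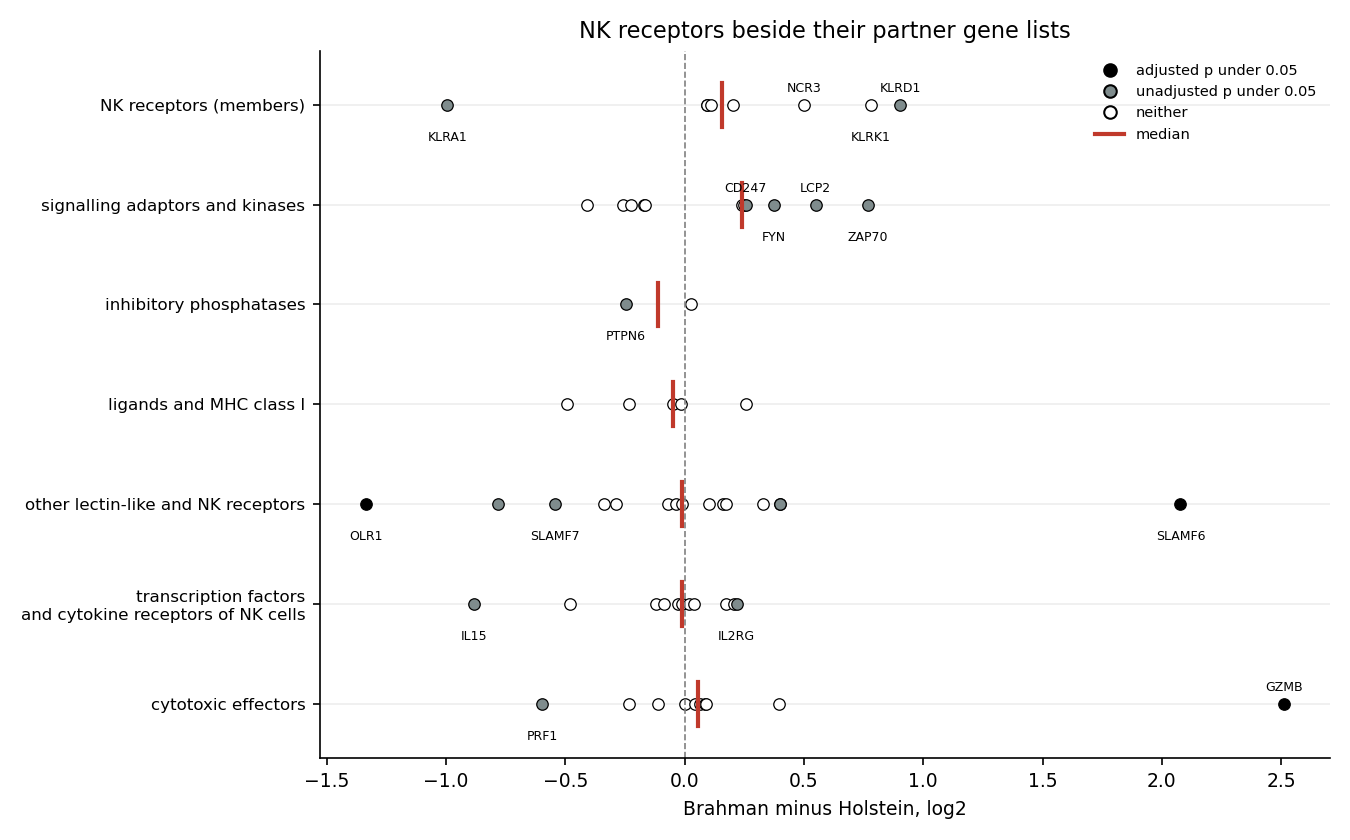
Brahman minus Holstein difference in log2 level (horizontal axis) for the 8 receptor probe sets in the top row and for the genes of each partner list below. Each circle is 1 probe set, black where the adjusted p was under 0.05 and grey where only the unadjusted p was, and red bars are medians. The receptors run from -0.99 to 0.90, and the black circles are GZMB, SLAMF6 and OLR1.

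The lectin-like receptors share a place in the genome that their choice did not use. In RefSeq's order of genes on the ARS-UCD2.0 cattle assembly, used only for order since the array names no genome build, the 7 lectin-like genes lie on 1 chromosome as KLRA1, KLRC1, KLRJ1, KLRK1, KLRD1, KLRF1 and KLRB1. KLRK1 and KLRD1 are direct neighbours, with 0 genes between them, and were the 2 members with the highest positive differences. From KLRA1 to KLRB1 RefSeq's order holds 54 genes, of which 9 were measured, 4 of them not among the receptors chosen here. Those 4 were OLR1, the activation marker CD69 (0.33), GABARAPL1 (-0.20) and CLECL1 (-0.10), with a median of -0.15. Genes of this stretch therefore had values in both directions, from -1.34 for OLR1 to 0.90 for KLRD1.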

How the data were processed

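Per the submitters' processing notes, the authors made the deposited log2 values with RMA (background correction, quantile normalisation, probe summary), with no version in the sources used here. The table holds 24128 probe sets on 6 arrays, 112 of them controls. Genes were named from the platform annotation, in which 13292 of the 24016 tested probe sets had a single symbol, 86 had several and 10638 had none. The number of arrays limits the precision.

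Brahman minus Holstein was fitted across all probe sets with limma 3.58.1 in R 4.3.3 (lmFit, eBayes), breed as the only term, two-sided, with Benjamini-Hochberg adjustment over all of them. Intervals are limma's 95% intervals, unadjusted. The code was tested on simulated data. The receptors, the partner lists and the marker lists were chosen with earlier results of these data known. Named partners are the 3 with the smallest p of each list, plus the adaptors, and other named genes were chosen after their values were seen. For genes with several probe sets in a list the brightest was used. Single within-array differences were tested by exact permutation over animals. Alternatives were cyclic loess, median subtraction, a filter on dim probe sets, a trended robust prior, weighted arrays, a replicate block, adjustment for the spike-in level and each array left out.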

Additional observations from a re-analysis of the deposited data

How the results depend on the processing

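No receptor probe set was called under any of the 13 alternatives (both KLRB1 probe sets fell out under the filter on dim probe sets), with 0 called without each array in turn. The count at an unadjusted p under 0.05, 2 in the reported fit, was 4 with array weights (KLRK1 and NCR3 added) and 1 with the spike-in covariate (KLRK1 alone), and ran from 1 to 3 with each array left out. KLRA1 was not among them without Brahman 1, Brahman 2, Holstein 2 or Holstein 3, while NCR3 was without Brahman 2 or Holstein 2 and KLRK1 without Holstein 2. The median difference, 0.16, was 0.41 with the spike-in covariate and 0.30 with dim probe sets left out, and ran from 0.11 to 0.28 with each array left out. KLRD1, KLRK1, NCR3 and KLRA1 kept their direction in every alternative. Small differences turned sign. With the spike-in covariate KLRB1 (S1) became -0.061, NCR1 -0.38, INPP5D -0.13, MIC1 -0.19 and BOLA 0.28, and with median subtraction INPP5D became -0.0032. With each array left out, KLRB1 ran from -0.027 (without Holstein 1) to 0.21 (A1) and from -0.00090 (without Brahman 1) to 0.41 (S1), KLRJ1 from -0.0031 (without Brahman 3) to 0.16, NCR1 from -0.033 (without Brahman 1) to 0.19, INPP5D from -0.033 (without Holstein 2) to 0.075, and FCER1G from -0.32 to 0.065 (without Holstein 1). NCR1 was also -0.023 without Holstein 2. The cause was not tested. GZMB stayed called in 7 of the 13 alternatives, and SLAMF6 and OLR1 in 6 each. The labels state no pairing of animals by replicate number. Deviations of same-numbered animals correlated over probe sets at 0.11, -0.04 and -0.07, and those of differently numbered animals at -0.09 to 0.12. With so few animals these values cannot settle whether the numbers pair them. With the replicate block 0 receptor probe sets were called and 2 had an unadjusted p under 0.05.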

Other observations

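For the receptors whose mean level was above the median of all probe sets (KLRD1, KLRK1 and NCR3), the genes with the most similar profile over the 6 arrays were looked up among 9148 other genes. With so few arrays many genes come close to any profile, and the values only describe these arrays. For KLRD1 they were TSPAN5 (Pearson r = 0.985), TM4SF1 (0.983) and PAG12 (0.978), with 124 genes above 0.9, and TM4SF1 and PAG12 are dim. For KLRK1 they were TP53I3 (0.980), EDEM3 (0.975) and AKIRIN1 (0.971), with 83 genes above 0.9. For NCR3 they were PSRC1 (0.985), PTPRB (0.983) and RORA (0.980), with 67 above 0.9. TSPAN5 read 8.64, 7.97 and 8.21 in Brahman, against 7.21, 7.82 and 7.84 in Holstein, and differed by 0.65 (adjusted p = 0.292, limma).

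Erythroid markers had higher values in Brahman in 4 of 6, platelet markers in 2 of 3, and the 1 dendritic cell marker measured, CD1B, was dim and differed by -0.09.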
